A study of Gossypium barbadense and Gossypium hirsutum with 8 samples.

Results

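In cotton fibre at 10 days post anthesis, 196 probe sets read at least 4-fold higher in Giza75, the low-yielding Gossypium barbadense parent, than in SG747, the high-yielding Gossypium hirsutum parent. These 196 (1.36% of 14417) were chosen by that parental difference alone, and 208 (1.44%) differed as much the other way. Each is a probe set, a group of short probes for 1 transcript or family on the Affymetrix cotton array, with a difference of 2 or more on the log2 scale between the single array of each parent. The 14417 were the probe sets left after the 40% with the lowest mean had been set aside, out of 24029. The study put the fibre RNA of 8 cotton lines on 1 array each: Giza75, the low-yielding backcross inbred lines LY1, LY2 and LY3 (NMGA066, NMGA095 and NMGA023), the high-yielding lines HY1, HY2 and HY3 (NMGA144, NMGA017 and NMGA026), and SG747. Backcross inbred lines (BILs) are inbred descendants of a hybrid crossed back to a parent, so each carries segments of both parental genomes. The sample labels and the design text give NMGA144 and NMGA026 the opposite way round, which leaves both lines in the high-yielding group. Per the labels, the lines and both parents were planted in the same environments, and no treatment other than harvest is described; the environment that gave the fibre is not stated.

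Cotton fibres are single cells of the seed coat that elongate for several weeks, and the sampled day falls in their rapid elongation. G. hirsutum (upland cotton) and G. barbadense (Egyptian and Pima cotton) are allotetraploids that hold the same 2 subgenomes, one related to G. arboreum and one to G. raimondii. Pima and Egyptian types are known for longer and finer fibre, and upland cotton for higher lint yield. A transcript that differs between the parents can differ through variants near its own gene, which an inbred line inherits from one parent or the other. It can also differ through regulators elsewhere in the genome. On an array designed mostly from one species, unequal match of the probes to the other species can give the same picture as a difference in transcript level, and that was not tested. Likewise, in fibre harvested in bulk from ovules a lower share of some cells and less RNA per cell cannot be told apart.

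The files pair no probe set with a gene, and 0 of the 196 identifiers matched the reference table of G. barbadense genes, so no gene role is given. No sequence is shown for the same reason, and fibre markers could not be checked by name. The probe sets described singly are called by a letter. The first letters of an identifier give the species whose sequence was used for the design (such as Ghi for G. hirsutum and Gra for G. raimondii), and the ending _s_at or _x_at marks probes shared by several transcripts.

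All levels below are quantile-normalized signals unless called deposited: the signal that a probe set has once the 8 arrays are given the same distribution. The arrays differed in brightness before that step, with a deposited median of 17.0 in Giza75, 36.3, 30.5 and 13.2 in LY1, LY2 and LY3, 13.5, 26.0 and 15.7 in HY1, HY2 and HY3 and 22.3 in SG747. For ss1, a control transcript, signal at the 5' end over that at the 3' end, a ratio that falls when RNA is degraded, was 0.345 in Giza75 and 0.428, 0.324 and 0.271 in LY1, LY2 and LY3. It was 0.108, 0.408 and 0.186 in HY1, HY2 and HY3 and 0.211 in SG747. LY1, LY2 and HY2 were thus the brighter lines and those with the higher ss1 ratio. The actin ratio ordered the lines otherwise, with 0.157, 0.174 and 0.156 in LY1, LY2 and LY3 and 0.124, 0.158 and 0.217 in HY1, HY2 and HY3. The ratio of ubq11, another control, was 0.598, 0.481 and 0.381 in LY1, LY2 and LY3 and 0.266, 0.658 and 0.312 in HY1, HY2 and HY3. Its highest lines were LY1, LY2 and HY2, as for ss1. Each line had 1 array, so a p-value between the yield groups measures the spread between lines, preparations and arrays together.

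The 196 probe sets covered a wide range of abundance in the parent that chose them. In Giza75 their signals ran from 58.1 to 7999 with a median of 450 (449.8), against 0.562 to 1766 with a median of 61.4 in SG747. The median log2 difference was 2.47 and the largest 5.04, against a median of -0.03 over all 14417. These values describe the choice and support nothing further. In SG747 40 of the 196 had a deposited signal under the median of that array and 31 had a deposited signal under 16, the constant added before logs, so their true fold is uncertain. None of the 196 lay under the array median in Giza75. Just inside the threshold stood 3 probe sets at 2.0062 to 2.0083, and just outside it 3 at 1.9994 to 1.9998.

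The low-yielding lines LY3 and LY1 had the high level far more often than the other 4 lines. A line was counted at the Giza75 level where it lay within 2-fold of Giza75 or above it, at the SG747 level where it lay within 2-fold of SG747 or below it, and otherwise as between. LY3 was at the Giza75 level for 133 of 196 (67.9%, exact binomial 95% interval 60.8% to 74.3%) and LY1 for 80 (40.8%, 33.9% to 48.0%). LY2, the third low-yielding line, was at that level for 17 (8.67%, 5.13% to 13.5%). The high-yielding lines had 14 (7.14%, 3.96% to 11.7%) in HY1, 31 (15.8%, 11.01% to 21.7%) in HY2 and 24 (12.2%, 8.01% to 17.7%) in HY3. The intervals cover the sampling of probe sets only, and probe sets of 1 array are not independent. The intervals of LY2, HY1, HY2 and HY3 overlap, so no order is read among these.

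The order of LY3 and LY1 depended on the normalization, and these were the dimmest and the brightest of the 8 arrays. On the deposited values without normalization between arrays, LY1 was at the Giza75 level for 65.6% and LY3 for 54.4%, HY2 for 35.9%, LY2 for 21.0%, HY3 for 10.8% and HY1 for 4.10%. LY1 and LY3 had the highest shares among the lines under that setting too. With the arrays centred on their medians the shares were 45.1% in LY1 and 61.5% in LY3, with at most 22.6% in the other lines. The part of brightness in the LY3 and LY1 shares beyond these settings was not tested.

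Levels between the parents were the smallest class in LY1, LY2 and LY3, while HY1, HY2 and HY3 had more probe sets between the parents than at the Giza75 level. The class is narrow by definition: the 2-fold windows of both parents meet at a log2 difference of 2, and the median was 2.47. Its small size is therefore not read as a result. In the 43 probe sets at least 8-fold apart it was not the smallest class in LY1, LY2 or LY3. There 13 lay between in LY1, 10 in LY2 and 12 in LY3, against 18, 2 and 27 at the Giza75 level and 12, 31 and 4 at the SG747 level. LY3 lay between for 27 of 196 probe sets, LY1 for 33, LY2 for 15, HY1 for 22, HY2 for 45 and HY3 for 44. On a scale where 0 is SG747 and 1 is Giza75, the median position was 0.82 in LY3 (quartiles 0.55 and 0.98) and 0.48 in LY1 (0.09 and 0.87). It was 0.07 in LY2 (-0.10 and 0.26), 0.21 in HY1 (0.07 and 0.32), 0.29 in HY2 (0.08 and 0.51) and 0.33 in HY3 (0.17 and 0.45). LY1 had the widest spread, with probe sets at both ends, while HY1 and HY3 held a narrow range above SG747. Of the 6 lines LY3 had the highest signal for 118 of the 196, LY1 for 42, HY3 for 22, LY2 and HY1 for 7 each and HY2 for 0.

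A few line combinations held most of the set. No line was at the Giza75 level for 49 probe sets (25%), LY3 alone was for 46 (23.5%), LY1 with LY3 for 38 (19.4%) and LY1, LY3 and HY2 for 18 (9.18%). LY3 with HY3 had 6, as had LY1, LY3, HY2 and HY3 together, and each of the other combinations had at most 3. By number of lines, 55 probe sets were at that level in 1 line, 49 in 2, 28 in 3, 13 in 4, 2 in 5 and 0 in all 6. At least 1 low-yielding line reached it for 141 (71.9%) and at least 1 high-yielding line for 55 (28.1%). Only 6 probe sets were at the Giza75 level in high-yielding lines and in no low-yielding line, while 92 were so in low-yielding lines and in no high-yielding one.

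The sets of LY1 and HY2 lay largely within that of LY3. LY3 itself held 67.9% of the 196, and its overlap with another line is read against that share. Of the 80 probe sets at the Giza75 level in LY1, 73 (91.3%) were also at that level in LY3, which is 54.9% of the 133 of LY3. Of the 31 of HY2, 30 (96.8%) were shared with LY1, or 37.5% of the LY1 set, and 29 (93.5%) with LY3, or 21.8% of the LY3 set. All 31 were shared with LY1 or LY3. Of the 24 of HY3, 21 (87.5%) were shared with LY3, 10 with LY1 and 6 with HY2. LY2 shared 14 of its 17 with LY1 and 11 (64.7%) with LY3, the last no more than the 67.9% of the whole set. Likewise HY1 shared 9 of its 14 (64.3%) with LY3, 6 each with LY2 and HY3, 4 with LY1 and 2 with HY2. LY1 or LY3 was at the Giza75 level for 140 of the 147 probe sets that any line held there, counting 7 found in other lines only. All these counts use the same Giza75 array.

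LY1 and HY2 were bright arrays with the highest ss1 ratios of the lines, 0.428 and 0.408, beside the overlap of their sets. The part of either measure in that overlap was not tested. LY3 was the dimmest line, with a ratio of 0.271. On the deposited values 75% of the LY1 set was shared with LY3, and for the HY2 set 98.6% was shared with LY1 and 77.1% with LY3.

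Distances between lines were also compared over the set and over all probe sets. Over the 196, the median absolute log2 gap was 0.84 between LY1 and LY3 and 1.07 between LY1 and LY2. Over all 14417 probe sets the order was the other way round, 0.57 between LY1 and LY3 and 0.28 between LY1 and LY2. HY2 was the nearest line to LY1 in both, with gaps of 0.61 and 0.25. LY2 and LY3 stood furthest apart in both, at 1.84 over the 196 and 0.60 over all, although both are low-yielding. LY2 was nearer to HY1 than to LY3 in both (0.54 and 0.40). Over all probe sets, however, it was nearer to HY2 (0.25) and LY1 (0.28) than to HY1. Over all probe sets the brighter lines LY1, LY2 and HY2 were only 0.25 to 0.28 apart. The part of brightness in these orders was not tested. A set chosen for large differences has larger gaps, so only the orders can be set side by side.

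Probe sets A and B had the largest parental differences of the 196. Probe set A read 2879.9 in Giza75, 780.6, 98.8 and 1802 in LY1, LY2 and LY3, 194, 506 and 296 in HY1, HY2 and HY3 and 71.9 in SG747, so the parents were 32.9-fold apart on the log2(value + 16) scale. LY3 alone was at the Giza75 level, LY1, HY1, HY2 and HY3 stood between and LY2 was close to SG747. Probe set B read 2086 in Giza75, 434, 151 and 1200.3 in LY1, LY2 and LY3, 310.0, 338 and 179 in HY1, HY2 and HY3 and 54.0 in SG747. Its order of lines was like that of A, with LY2 the lowest and all 6 lines above SG747. Probe set C read 2400.3 in Giza75, 525, 58.3 and 952 in LY1, LY2 and LY3, 126, 305 and 161 in HY1, HY2 and HY3 and 71.2 in SG747. No line came within 2-fold of Giza75 for C. Probe set D read 1263 in Giza75, 2062, 131 and 1513 in LY1, LY2 and LY3, 124, 861 and 247 in HY1, HY2 and HY3 and 55.3 in SG747. There LY1 and LY3 exceeded Giza75, and LY2 and HY1 stayed far below it.

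For the 6 commonest combinations of lines, examples follow that were chosen for a clear step, so they are not typical of their group. They were those with the widest gap between the lowest line at the Giza75 level and the next line. Probe set H was high in LY3 alone, at 470 (470.4) in Giza75 and 455 in LY3, against 93.0 and 53.2 in LY1 and LY2, 88.7, 105 and 77.3 in HY1, HY2 and HY3 and 61.5 in SG747. Probe set J read 309 in Giza75 and 312 in LY3, with 68.4 and 40.7 in LY1 and LY2, 67.2, 63.2 and 75.9 in HY1, HY2 and HY3 and 59.5 in SG747. In both, LY3 equalled Giza75 to within a few percent and the other 5 lines stayed near SG747.

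LY1 joined LY3 for probe sets K and L. Probe set K read 263 in Giza75, 288, 23.6 and 202 in LY1, LY2 and LY3, 15.3, 38.2 and 39.1 in HY1, HY2 and HY3 and 8.68 in SG747. Probe set L read 677 in Giza75, 624, 83.8 and 596 in LY1, LY2 and LY3, 58.1, 175.5 and 58.4 in HY1, HY2 and HY3 and 42.1 in SG747. The lower of LY1 and LY3 stood above the highest of the other lines by a log2 gap of 1.98 for K and 1.68 for L.

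HY2 joined LY1 and LY3 for probe sets M and N. Probe set M read 1145 in Giza75, 2311 and 1665 in LY1 and LY3 and 1239 in HY2, against 179 in LY2, 132 and 146 in HY1 and HY3 and 69.5 in SG747. Probe set N read 693 in Giza75, 602 and 569 in LY1 and LY3 and 538 in HY2, against 65.1 in LY2, 30.8 and 104 in HY1 and HY3 and 23.8 in SG747. The 8 arrays fell into 4 high and 4 low ones for each, with the yield groups split in the same way.

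Other combinations were rarer. Probe sets P and Q were at the Giza75 level in LY1, LY3, HY2 and HY3. P read 1366 in Giza75, 3665, 301 and 3317 in LY1, LY2 and LY3, 323, 1616 and 814 in HY1, HY2 and HY3 and 184 in SG747. Q read 1419 in Giza75, 1038, 478 and 2906 in LY1, LY2 and LY3, 472, 1179 and 1056 in HY1, HY2 and HY3 and 329 in SG747. In both, LY2 and HY1 were the lowest lines. Probe set R was high in LY3 and HY3, with 2559 in Giza75, 142, 193 and 1333 in LY1, LY2 and LY3, 283, 129.9 and 4298 in HY1, HY2 and HY3 and 136 in SG747. HY3 exceeded Giza75 for R by 1.68-fold, while LY1 and HY2 read like SG747. Probe set S shared that combination at lower signals: 324 in Giza75, 38.0, 39.97 and 264 in LY1, LY2 and LY3, 75.9, 60.9 and 189 in HY1, HY2 and HY3 and 68.5 in SG747. Probe sets T and U were at the Giza75 level in all 3 low-yielding lines and HY2. T read 401 in Giza75, 1846, 872 and 482 in LY1, LY2 and LY3, 143, 892 and 39.9 in HY1, HY2 and HY3 and 71.7 in SG747. U read 184 in Giza75, 687, 100.1 and 177 in LY1, LY2 and LY3, 36.2, 268 and 35.3 in HY1, HY2 and HY3 and 6.18 in SG747.

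Several lines went beyond a parent. In 67 of the 196 probe sets at least 1 line read above Giza75, and in 14 a line did so by 2-fold or more. LY1 was the line in 11 of these cases, LY3 in 7, LY2 and HY2 in 1 each, and HY1 and HY3 in 0. At the other end, at least 1 line read below SG747 in 104 probe sets: LY2 in 74, HY2 in 36, LY1 in 34, HY1 in 24, HY3 in 20 and LY3 in 2. It was by 2-fold or more in 6 for LY1, 6 for LY2 and 5 for HY2, the 3 brighter lines, and in 0 for LY3, HY1 and HY3. Giza75 was chosen high and SG747 low on the arrays that are compared here, so these counts rest on that choice.

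In 23 of the 196 all 6 lines were at the SG747 level. Probe set E read 2251 in Giza75, 87.8, 82.2 and 324 in LY1, LY2 and LY3, 376, 83.3 and 262 in HY1, HY2 and HY3 and 285 in SG747. Probe set F read 2186 in Giza75, 343, 284 and 607 in LY1, LY2 and LY3, 361, 439 and 536 in HY1, HY2 and HY3 and 407 in SG747. Probe set G read 859 in Giza75, 68.7, 37.1 and 198 in LY1, LY2 and LY3, 170.0, 134 and 114 in HY1, HY2 and HY3 and 183 in SG747. LY3 was the highest low-yielding line in all 3, and no line came within 2-fold of Giza75. With 1 Giza75 array, a reading that was high on that array alone cannot be told apart from a transcript that no line shares.

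Between the yield groups no probe set of the 196 passed the test. The low-yielding lines were compared with the high-yielding lines over all 14417 probe sets with limma, 3 lines against 3, since the parental difference used neither group. The normalization and the filter by lowest mean did use all 8 arrays, these lines included. The adjusted p (Benjamini-Hochberg) was under 0.05 for 0 of the 196 and 0 of 14417 (0%), with a lowest value of 0.994. At an unadjusted p under 0.05, 18 of the 196 (9.18%) were called, against 2.12% of all probe sets. All 18 were higher in the low-yielding lines, where 1.39% of all probe sets were called in that direction, and 0 were lower, where 0.728% were. With a difference of 2-fold or more as well, 15 (7.65%) were higher, against 0.61% of all, and 0 were lower, against 0.0971%. The groups did not overlap in 8 (4.08%), each with the low-yielding lines above, where 2.03% of all probe sets did so, and in 0 with them below, where 4.18% did. These shares are set beside the background as a description and are not a test.

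The low-yielding lines were higher on average for 149 of the 196 (76.0%), against 45.2% of all probe sets, and at least 2-fold higher for 36 (18.4%), against 1.29%. None of the 196 was at least 2-fold lower, against 0.173% of all. The median log2 difference was 0.50, against -0.04 over all probe sets. That median rested on single lines: it was 0.96 without LY2 and 0.06 without LY3 (0.45 to 0.56 without any of the other lines). The count of 15 was 80 without LY2 (40.8% of the 196, against 1.71% of all probe sets), 28 without HY2 (14.3% against 2.44%) and 10 without LY3 (5.10% against 3.64%). It was 5 without HY3 (2.55% against 0.208%), 3 without LY1 (1.53% against 0.125%) and 3 without HY1 (1.53% against 0.43%). Without LY3, 8 of the 196 had an unadjusted p under 0.05 and were at least 2-fold lower in the low-yielding lines. That is a larger share than the 1.61% of all probe sets, so the share of the 196 was then above that of all in both directions. At an unadjusted p under 0.05 with no fold limit the 196 had 11.7% without LY3, against 12.6% of all. The count of 8 without overlap was 94 without LY2 (48.0%, against 7.02% of all), 33 without HY2 (16.8% against 9.59%), 16 without HY1 (8.16% against 4.35%) and 13 without LY3 (6.63% against 14.99%). With the low-yielding lines below, it was 21 without LY3 (10.7%, against 17.9% of all) and 3 without HY2 (1.53% against 13.5%). It was 1 without LY1 (0.51% against 5.73%) and 1 without HY1 (0.51% against 7.03%). Without LY3, non-overlap was thus less frequent among the 196 than among all probe sets in both directions. Without the probe sets ending in _s_at or _x_at the count was 1 of 61 (1.64% against 2.02% of all), as was the count of 15 (1.64% against 0.331%).

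Probe sets V, W and X had the smallest unadjusted p, with the groups apart. V read 464 in Giza75, 750 (749.7), 480.4 and 292 in LY1, LY2 and LY3, 178, 214 and 100.3 in HY1, HY2 and HY3 and 69.9 in SG747, which is 507 ± 230.2 (SD, n = 3) in the low-yielding and 164 ± 58.2 in the high-yielding lines. Its log2 difference was 1.497 ± 0.42 (SE; limma, adjusted p = 0.994). On the deposited scale V overlapped between the groups, with 179 (178.9) in LY3 and 276 in HY2. W read 122 in Giza75, 103, 80.2 and 61.2 in LY1, LY2 and LY3, 30.4, 32.6 and 33.4 in HY1, HY2 and HY3 and 10.3 in SG747. Its log2 difference was 1.00 ± 0.28 (SE; limma, adjusted p = 0.994), and the high-yielding lines were close together. On the deposited scale W overlapped too, with 35.8 in LY3 and 42.8 in HY2. X read 197 in Giza75, 605, 232 and 104 in LY1, LY2 and LY3, 85.6, 43.1 and 10.3 in HY1, HY2 and HY3 and 9.52 in SG747. Its log2 difference was 2.29 ± 0.65 (SE; limma, adjusted p = 0.994), and LY3 and HY1 were the nearest lines.

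In the other direction the differences were smaller and the groups overlapped. Probe set Y read 213 in Giza75, 25.6, 22.8 and 80.5 in LY1, LY2 and LY3, 77.0, 44.0 and 202.5 in HY1, HY2 and HY3 and 20.3 in SG747. HY3 alone was at the Giza75 level, and the log2 difference was -0.99 ± 0.53 (SE; limma, adjusted p = 0.994). Probe set Z read 247 in Giza75, 5.94, 12.6 and 20.7 in LY1, LY2 and LY3, 43.5, 9.26 and 40.3 in HY1, HY2 and HY3 and 42.9 in SG747, with a log2 difference of -0.63 ± 0.37 (SE; limma, adjusted p = 0.994). LY1, LY2 and HY2, the brighter arrays, were its 3 lowest lines. Probe set AA read 587 in Giza75, 62.8, 85.6 and 124 in LY1, LY2 and LY3, 115, 111 and 222 in HY1, HY2 and HY3 and 117 in SG747, with a log2 difference of -0.61 ± 0.37 (SE; limma, adjusted p = 0.994).

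The set differed from all probe sets in how its probes were designed, a property the rule did not use. Of the 196, 108 (55.1%) ended in _s_at and 27 (13.8%) in _x_at, against 44.2% and 7.63% of all 14417. Of the 208 probe sets at least 4-fold higher in SG747, 31.3% and 11.5% had these endings. Probe sets with probes for 1 transcript (_at) made up 61 (31.1%) of the 196, against 46.5% of all and 55.3% of the 208. By species of design, 157 (80.1%) came from G. hirsutum and 32 (16.3%) from G. raimondii, close to the 81.7% and 17.7% of all probe sets. G. arboreum sequences gave 2 of 54. The 196 came from 192 sequence clusters. The set also held 2 of the 4 probe sets whose identifiers start with GhirRNA, which read 949.8 and 3314 in Giza75, 388 and 2021 in LY1, 253 and 1081 in LY2 and 1463 and 4691 in LY3. They read 892 and 1560.1 in HY1, 330.2 and 1922 in HY2, 393 and 1492 in HY3 and 183 and 785 in SG747, so LY3 exceeded Giza75 in both.

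The share of LY3 also varied with the species of design. The intervals of LY1 overlap between the species, and those by ending overlap in every line. LY3 was at the Giza75 level for 119 of the 157 G. hirsutum probe sets (75.8%, exact 95% interval 68.3% to 82.3%) and for 11 of the 32 from G. raimondii (34.4%, 18.6% to 53.2%). LY1 was so for 43.9% (36.0% to 52.1%) and 25% (11.5% to 43.4%). By ending, LY3 was at that level for 59.0% of the _at, 72.2% of the _s_at and 70.4% of the _x_at probe sets, and LY1 for 29.5%, 47.2% and 40.7%. HY1 was so for 11.5% (4.74% to 22.2%) of the _at and 4.63% (1.52% to 10.5%) of the _s_at probe sets. HY3 had 16.4% (8.15% to 28.1%) and 8.33% (3.88% to 15.2%). LY2 had 12.5% (3.51% to 29.0%) of the G. raimondii and 7.64% (4.01% to 13.0%) of the G. hirsutum ones. These intervals overlap, so no opposite direction is read in HY1, HY3 or LY2. LY3 and LY1 had the highest and the next highest share in each of these 5 classes.

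LY3 also stood nearest to Giza75 where the parents differed less. Over 1112 probe sets 2- to 4-fold higher in Giza75, outside the set, the median position was 0.70 in LY3 and 0.21 in LY1. It was 0.0044 in LY2, 0.27 in HY1, 0.17 in HY2 and 0.30 in HY3. In the 43 probe sets at least 8-fold apart it was 0.87 in LY3 and 0.63 in LY1, with 0.12 in LY2, 0.21 in HY1, 0.35 in HY2 and 0.33 in HY3. The share of LY1 at the Giza75 level was alike in both ranges of the set, 41.9% at 8-fold or more and 40.5% from 4- to 8-fold, and that of LY3 was 62.8% and 69.3%. In the 1963 probe sets with a log2 difference from 0.5 to 1, the median position was 0.63 in LY3 and 0.15 in LY1, where LY1 lay below HY1 (0.304) and HY3 (0.31). HY2 stood at 0.14 and LY2 at -0.01 there. In this range and from 2- to 4-fold, the dimmer lines LY3, HY1 and HY3 all stood above the brighter LY1, LY2 and HY2. The part of array brightness in these positions was not tested.

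The 208 probe sets at least 4-fold higher in SG747 gave another picture in LY3. LY3 was at the SG747 level for 143 of them (68.8%) and at the Giza75 level for 31 (14.9%), although it was at the Giza75 level for 67.9% of the 196. LY1 was at the SG747 level for 143 (68.8%), LY2 for 170 (81.7%), HY1 for 186 (89.4%), HY2 for 176 (84.6%) and HY3 for 188 (90.4%). All 6 lines were thus at the high level for most probe sets higher in SG747, while LY3 alone was so for most of those higher in Giza75 after quantile normalization. That depends on the setting: for those higher in Giza75, LY1 had 65.6% on deposited values and 50% with a pseudocount of 64. Only 111 and 85 of them stayed 4-fold apart there, and for the rest the 2-fold windows of the parents overlap. With a pseudocount of 64 the share rose in every line. These shares are thus not on a like measure with the 67.9%. Both sets rest on the same parental arrays.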

How the data were processed

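Fibre RNA of 8 cotton lines was measured on 1 Affymetrix array each. The deposited table holds 1 linear intensity for each probe set on each array. GCOS and MAS5 are named in the submitters' processing notes; their version and scaling target are not given in the sources used here. All 8 columns were matched to samples by identifier, and no pair of arrays had more than 1.2% equal values. From the 24132 rows, 103 AFFX control rows were dropped. The rest was transformed as log2(value + 16), which understates the fold change of low probe sets, and quantile-normalized over 8 arrays. Ranked by mean, the lowest 40% were then removed. A printed signal is 2 to the power of the normalized value, minus 16. Without the filter 197 probe sets would meet the rule in place of 196.

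Low-yielding and high-yielding lines were compared with lmFit and eBayes with an intensity trend (limma 3.58.1, R 4.3.3), Benjamini-Hochberg adjustment over 14417 probe sets and a threshold of 0.05. Intervals are exact binomial (scipy 1.17.1). On simulated data for this comparison, run on 14417 probe sets with 50 changed per fold, 8% of 2-fold, 90% of 4-fold and 100% of 8-fold changes were recovered; array-wide variation was not simulated.

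The members and lists were chosen with earlier results of these data known. Probe sets were given letters by rule: the 4 largest parental differences, the 3 highest in Giza75 among those at the SG747 level in all lines, the 2 with the widest gap in each of the 6 commonest line combinations, and the 3 with the smallest p in each direction. The sixth combination was tied and settled by the widest gap; no probe set was at the Giza75 level in all 6 lines. The gene lists were not used, as no probe set could be named. Alternatives were pseudocounts of 1 and 64, no normalization, median centring, no filter, leaving out the lowest 60%, leaving out shared probe sets, an 8-fold difference, mid-parent in place of 2-fold, no intensity trend, the line number as a block, and leaving out each line. The deviations of same-numbered lines correlated at -0.24, 0.19 and 0.54 for LY1 with HY1, LY2 with HY2 and LY3 with HY3. Only the last were clearly alike, and no pairing entered the main comparison. One class of probe sets by design sequence is not reported here.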

Additional observations from a re-analysis of the deposited data

Results flagged for a closer look

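For 2 of the 196 probe sets (1.02%) every low-yielding line lay nearer Giza75 and every high-yielding line nearer SG747, and for 0 was it the opposite. These counts were made in the set only. With no share over all probe sets beside them, they are not read as a result about the set. Whether the lines of the groups differ in this way beyond their spread was not tested apart from the limma comparison. The first was probe set W, with a log2 difference of 1.00 between low-yielding and high-yielding lines (limma, adjusted p = 0.994). Its deposited signals were 180 (179.7), 123 and 35.8 in LY1, LY2 and LY3 and 18.9, 42.8 and 23.8 in HY1, HY2 and HY3, so on the deposited scale LY3 lay below HY2. The second had a log2 difference of 0.61 (limma, adjusted p = 0.994) and read 219 in Giza75, 108, 120 (119.8) and 72.5 in LY1, LY2 and LY3, 62.5, 68.6 and 47.5 in HY1, HY2 and HY3 and 15.7 in SG747. LY3 and HY2 were its nearest lines, and on the deposited scale its groups overlapped too, with 42.3 in LY3 and 92.8 in HY2.

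Among the probe sets left out for their low mean, 1 met the 4-fold rule, with a log2 difference of 2.79 between Giza75 and SG747. It read 103 in Giza75 and 5.70, 6.50 and 2.09 in LY1, LY2 and LY3, 14.6, 18.6 and 0.817 in HY1, HY2 and HY3 and 1.18 in SG747, so it was high on the Giza75 array and on no other.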

How the results depend on the processing

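No probe set of the 196 passed the adjusted threshold in limma under any alternative. The lowest adjusted p over all probe sets was 0.288 (limma, with the line number as a replicate block). With all 6 lines and no block, 2 to 20 of the set had an unadjusted p under 0.05. That was 3.28% to 11.6% of those tested, against 0.985% to 3.24% of all probe sets. When a line was left out, 4 to 85 did so (2.04% to 43.4%, against 0.506% to 12.6% of all). Without LY3 the share was below that of all, 11.7% against 12.6%. The replicate block gave 31 at an unadjusted p under 0.05 and 21 with 2-fold higher in the low-yielding lines, in place of 18 and 15; over all probe sets these shares were 4.49% and 1.04% under the block, in place of 2.12% and 0.61%. The sharing of probe sets between lines was recomputed under alternatives chosen after seeing the data, and the other alternatives were planned.

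Chosen again, the set had 512 probe sets with a pseudocount of 1, 85 with 64, 111 on deposited values, 61 without shared probe sets and 43 at 8-fold; 193, 85, 111 and 61 of the first 4 were among the 196. Some of the 196 fall under the filter in other settings: 193 were tested with a pseudocount of 1 and 195 on deposited values. The 15 called at 2-fold became 9 with a pseudocount of 64 (4.59%, against 0.243% of all), 1 without shared probe sets (1.64% against 0.331%) and 5 of the 43 (11.6% against 0.61%). Leaving out a line gave 3 to 80 higher (1.53% to 40.8%, against 0.125% to 3.64% of all). It gave 0 to 8 lower, where 0.0624% to 1.61% of all were. The 8 without overlap became 14 on deposited values (7.18%, against 2.34% of all), 1 without shared probe sets (1.64% against 2.02%) and 2 of the 43 (4.65% against 2.03%). When a line was left out, 9 to 94 were above (4.59% to 48.0%, against 2.97% to 15.0% of all). In the same fits 0 to 21 were below (0% to 10.7%, against 5.73% to 17.9% of all). Also below were 1 on deposited values (0.513%, against 0.388% of all) and 2 with median centring (1.03% against 3.37%). The median log2 difference was 0.06 to 0.96 when a line was left out.

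At the Giza75 level, a pseudocount of 64 gave 50% in LY1, 74.5% in LY3, 17.3% in HY1 and 27.6% in HY2 and HY3. Deposited values gave 65.6% in LY1, 21.0% in LY2, 54.4% in LY3 and 35.9% in HY2, and median centring 22.6% in HY2. Without shared probe sets the shares were 29.5% in LY1 and 59.0% in LY3; at 8-fold 4.65% in LY2 and HY3 and 2.33% in HY1; by mid-parent 49.0% in LY1, 78.1% in LY3, 26.5% in HY2 and 18.4% in HY3. Of the LY1 set 75% was shared with LY3 on deposited values; of the HY2 set LY3 shared 77.1% on deposited values, 100% with a pseudocount of 64 and 100% without shared probe sets, where LY1 shared 100% too. Of the 196, only 85 stayed 4-fold apart with a pseudocount of 64 and 111 on deposited values, so these shares are not on a like measure. The cause of these shifts was not tested. The number of arrays limits the precision.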
